A study of Homo sapiens with 6 samples.

Results

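This account concerns 6 genes of the DNA mismatch repair system, MSH6, MSH3, PMS2, PMS1, MLH3 and EXO1, in DLD-1 cells, an established human colorectal adenocarcinoma line. They were taken by name from the deposited gene expression table, in which they are 6 of 31016 genes. Poly(A) RNA had been sequenced in 6 libraries. In 3 of them (TGFb 1 to 3) the cells had been treated with the growth factor TGF-β. In the other 3 (TGFb_TFA 1 to 3) they had also received TFA, which is the total flavone of a plant, Abelmoschus manihot. The labels give the libraries numbered 1, 2 and 3 of both groups treatment times of 24, 25 and 26 h. The design text says that the cells had TGF-β for 24 h before TFA, and gives no dose of either. Every group had TGF-β, so no value here shows what TGF-β itself did. No source used here says that the libraries of a group came from separate cultures, so p-values measure only the spread between these libraries, which may be technical.

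Mismatch repair corrects bases mispaired during DNA replication and the small loops that form when a polymerase slips on a repeat. MutS proteins, among them MSH6 and MSH3, each work in a pair with a shared partner and find the error: MSH6 is the subunit of the complex that reads base mispairs and small loops, and MSH3 that of the complex that reads larger loops. MutL proteins, among them PMS2, PMS1 and MLH3, also pair with a common partner. PMS2 carries the nuclease that nicks the new strand, MLH3 is best known for crossovers in meiosis, and the role of PMS1 is less clear. EXO1 is the exonuclease that removes the stretch of new strand holding the error, which a polymerase then fills in. Loss of mismatch repair gives microsatellite instability, known from a subset of colorectal cancers. DLD-1 is known as a line of this kind that lacks working MSH6 protein because of mutations in the gene. RNA counted over a gene does not show whether the protein made from it works.

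Several of these genes start beside another gene or have close copies elsewhere in the genome, which bears on what their values hold. MSH6 (ENSG00000116062) lies on chromosome 2 from 47695530 to 47806953 (GRCh38, plus strand), MSH3 (ENSG00000113318) on chromosome 5 from 80654652 to 80876815 (plus) and PMS2 (ENSG00000122512) on chromosome 7 from 5970925 to 6009106 (minus). PMS1 (ENSG00000064933) lies on chromosome 2 from 189784085 to 189877629 (plus), MLH3 (ENSG00000119684) on chromosome 14 from 75013769 to 75051532 (minus) and EXO1 (ENSG00000174371) on chromosome 1 from 241847967 to 241895148 (plus). The positions are those of the table. A stretch before the starts of 2 of these genes is printed below, from RefSeq on GRCh38.p14 and read 5′ to 3′ on the gene's own strand. Both were limited to bases outside GENCODE 29 exons.

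MSH6 upstream: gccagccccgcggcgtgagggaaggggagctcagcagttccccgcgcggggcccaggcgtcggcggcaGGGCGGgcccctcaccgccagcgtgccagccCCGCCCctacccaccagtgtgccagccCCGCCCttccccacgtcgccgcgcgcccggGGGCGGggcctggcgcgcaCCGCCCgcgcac
PMS2-AIMP2 gap: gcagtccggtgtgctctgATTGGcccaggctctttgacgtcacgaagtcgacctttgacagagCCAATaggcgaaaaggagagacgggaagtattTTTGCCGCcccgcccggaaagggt

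The MSH6 stretch (chr2:47782895-47783081, plus strand) is 187 bases long, with a GC content of 82.4%, and its capitals mark 5 matches to the GC box GGGCGG on either strand. It ends 63 bases before the RefSeq start of MSH6, and that start lies 87615 bases inside the table's MSH6 span. It is shown because the table's MSH6 begins that far upstream of the first RefSeq start. A GC box was found in 39.4% of RefSeq promoter windows of that length. The PMS2 stretch (chr7:6009126-6009244, minus strand) lies in the 148 bases that separate PMS2 from AIMP2, a gene for a scaffold protein of tRNA synthetases that runs the other way. Its capitals mark 2 matches to the CCAAT box (CCAAT, either strand) and 1 to an E2F site (TTTCCCGC, TTTCGCGC, TTTGCCGC or TTTGGCGC, either strand). E2F factors drive genes of the G1 to S transition. Among 35116 RefSeq promoter windows cut to 119 bases, 20.3% held a CCAAT box and 1.36% an E2F match. It also holds 2 GC boxes, left in lower case, of which 1 overlaps the E2F match. These are matches of letters and not binding sites that were measured.

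PMS2 is the member with close copies, and the stretch below shows how little sets one of them apart.

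PMS2: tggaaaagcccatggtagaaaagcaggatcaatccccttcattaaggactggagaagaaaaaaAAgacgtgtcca
PMS2CL: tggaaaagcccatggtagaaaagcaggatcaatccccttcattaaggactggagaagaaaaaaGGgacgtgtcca

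These 75 bases of exon 11 of 15 of PMS2 (chr7:5987516-5987590, minus strand, GENCODE 29) differ from the pseudogene PMS2CL at the 2 bases in capitals, A64G and A65G, counted from 1 at the 5′ end with the PMS2 base first. Over the 1618 bases that could be aligned, the 2 transcripts were 97.96% identical, and their longest identical run was 355 bases. A read of 150 bases from inside that run has the same letters in both genes.

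The 6 genes were all found, at unequal levels. EXO1, the exonuclease, had the highest level per length, with 16.2, 12.3 and 15.9 FPKM in TGFb 1 to 3 and 16.3, 15.7 and 10.4 FPKM in TGFb_TFA 1 to 3. FPKM is the number of fragments per kilobase of gene, scaled to the size of the library. TGFb_TFA 3 and TGFb 2 were the lowest, and the other 4 lay between 15.7 and 16.3 FPKM. In bulk RNA, fewer cells with a transcript and less of it per cell cannot be told apart.

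Among the MutL genes, PMS1 had 11.0, 9.54 and 10.4 FPKM with TGF-β alone and 11.8, 11.4 and 6.50 FPKM with TFA. Its TGFb_TFA 3 value lay below the other 5 and its remaining TFA values above all of TGFb 1 to 3. MLH3 had 5.99, 3.83 and 4.93 FPKM with TGF-β alone and 4.99, 5.17 and 2.38 FPKM with TFA. The lowest library was again TGFb_TFA 3, and the highest was TGFb 1. PMS2 had 4.10, 3.53 and 4.52 FPKM with TGF-β alone and 3.86, 4.72 and 3.55 FPKM with TFA. It was the steadiest of the 6, and its TGFb_TFA 3 value was not the lowest.

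Of the MutS genes, MSH3 had 5.22, 2.93 and 5.13 FPKM with TGF-β alone and 5.44, 6.35 and 2.83 FPKM with TFA. Each group held 1 library, TGFb 2 and TGFb_TFA 3, well below its other libraries. MSH6 had 2.07, 2.04 and 2.88 FPKM with TGF-β alone and 2.61, 2.68 and 1.83 FPKM with TFA. It was the lowest of the 6 genes in FPKM in every library, and its RNA was present in all of them. For none of the 6 genes did the groups separate.

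**Figure D1:**
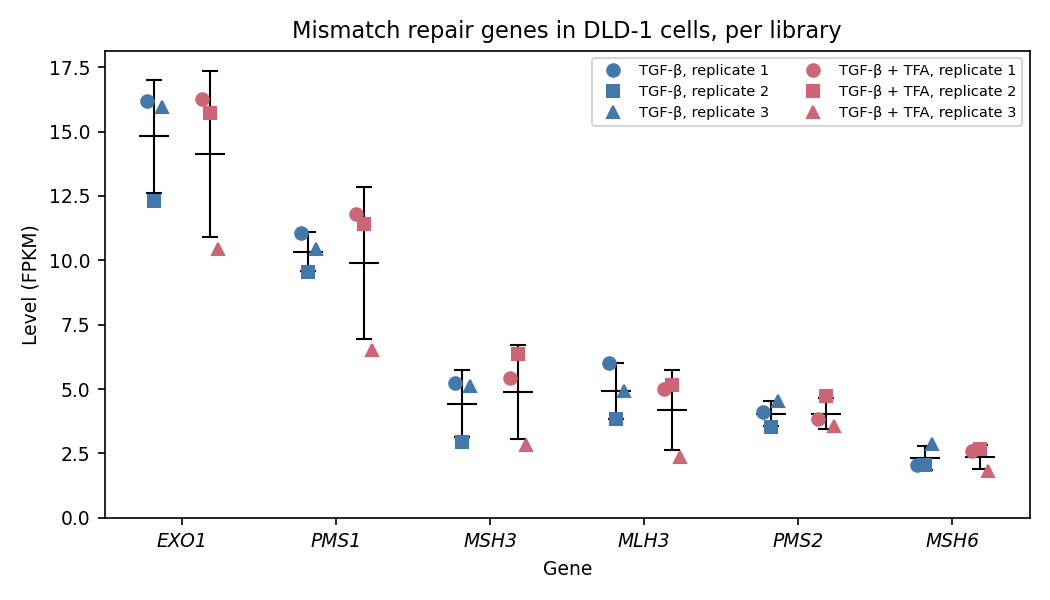
Level of each mismatch repair gene in FPKM, one point per library, with the mean and SD of the 3 libraries of a group as bars. EXO1 and PMS1 lie above the other 4 genes, MSH6 lies lowest, and the values of both groups overlap for each gene.

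Averaged over the 6 libraries, EXO1 stood at 14.5 ± 2.49 FPKM (SD, n = 6), PMS1 at 10.1 ± 1.94 and MSH3 at 4.65 ± 1.44. MLH3 stood at 4.55 ± 1.27, PMS2 at 4.05 ± 0.495 and MSH6 at 2.35 ± 0.424. MSH6 thus made up 5.85% of the summed FPKM of the 6 genes, against 36.0% for EXO1. Among all 31016 genes, ranked by mean FPKM, MSH6 lay at percentile 74.1 and EXO1 at percentile 91.5.

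Neighbours in this order were compared by their log2 ratio within each library. An exact two-sided sign-flip permutation test was used, with Benjamini-Hochberg adjustment over the 5 pairs. The order that set the pairs came from these same libraries, and each ratio depends on the gene lengths used. The p-values thus describe how steady a ratio was between libraries and are no separate support for the order. EXO1 was above PMS1 in 6 of 6 libraries, by 0.52 on the log2 scale (SD 0.12). PMS1 was above MSH3 in 6 of 6, by 1.16 (SD 0.29). PMS2 was above MSH6 in 6 of 6, by 0.79 (SD 0.17) or 1.73-fold. Each of these 3 pairs had an exact p of 0.03125, the smallest that 6 libraries allow, and an adjusted p of 0.0521, which misses 0.05. MSH3 was above MLH3 in 4 of 6 libraries, by 0.02 (SD 0.27, adjusted exact p = 0.844), and MLH3 above PMS2 in 5 of 6, by 0.12 (SD 0.38, adjusted exact p = 0.547). Neither of these 2 pairs differed beyond its spread in FPKM.

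The distances between these genes, and some of their places, depend on the length by which counts are divided. The deposited FPKM value implied a length of 10959 bases for MSH6, which is 2.69 times its longest coding sequence of 4080 bases in GENCODE 29. The ratio was 2.41 for PMS2, 1.95 for PMS1, 1.92 for MLH3, 1.63 for EXO1 and 1.56 for MSH3. In estimated counts, which are not corrected for length, MSH6 averaged 1833 and stood above PMS2 (1798) and MSH3 (1767), with EXO1 at 4275, PMS1 at 3944 and MLH3 at 2727. On the scale of CPM (counts scaled to library size) per kilobase of coding sequence, MSH6 was again the lowest of the 6, at 7.09, below MSH3 at 8.16, MLH3 at 9.79 and PMS2 at 10.9, with PMS1 at 22.2 and EXO1 at 26.5. On that scale the order of the means of MSH3, MLH3 and PMS2 was turned round, and the first 2 places and the last were as before. MSH6 was not the lowest in every library there: in TGFb_TFA 3 it stood at 5.55, above MSH3 at 4.99 and MLH3 at 5.15, and in TGFb 2 at 6.17, above MSH3 at 5.16. Per kilobase of the longest coding transcript, PMS2 was above MLH3 in 6 of 6 libraries, by 0.92 on the log2 scale. The adjusted exact p of this pair was 0.0521, which misses 0.05. Its direction and size thus depend on the length used. On the same scale EXO1 was above PMS1 in 5 of 6 libraries, by only 0.10 (adjusted exact p = 0.125). The gap between the first 2 genes therefore depends on the length too.

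Length also bears on MSH6 through a neighbour. The table's MSH6 span overlaps that of FBXO11, a gene for an F-box protein on the opposite strand, by 17638 bases, and 1785 of the 10993 GENCODE 29 exon bases of MSH6 are exon bases of FBXO11 too. The libraries kept strand by dUTP labelling, per the labels' protocols, but no source used here says whether the counting used strand. FBXO11 had 4.86, 3.00 and 4.99 FPKM with TGF-β alone and 4.67, 4.95 and 2.21 FPKM with TFA. How much of either value comes from the other gene was not tested.

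The question of the design is what TFA changed in cells given TGF-β, and none of the 6 genes passed the test. With edgeR's quasi-likelihood test, 2 of 18265 tested genes, 0.0109%, had an adjusted p under 0.05 in either direction, and 0 of the 6 mismatch repair genes did. Those 2 genes, named here because the count is small, were CYP1A1 and STBD1. Before adjustment, 334 genes (1.83% of those tested) had a p under 0.05, and again 0 of the 6. Groups did not overlap in 1444 genes in CPM, 7.91%, and in 1452 genes in FPKM, 7.95%, and overlapped in all 6 mismatch repair genes on both scales. DESeq2 called 13 of 18253 genes, 0.0712%, and 0 of the 6.

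The MutS genes had fitted log2 fold changes, TFA over TGF-β alone, of 0.05 for MSH6 (95% interval -0.36 to 0.45) and 0.15 for MSH3 (-0.53 to 0.83). For MSH6 the interval runs from 0.779-fold to 1.37-fold, and for MSH3 from 0.69-fold to 1.77-fold. The MutL genes had 0.03 for PMS2 (-0.31 to 0.36), -0.05 for PMS1 (-0.48 to 0.38) and -0.23 for MLH3 (-0.84 to 0.38). EXO1 had -0.05 (-0.44 to 0.34). The adjusted p of edgeR was 0.9997 for each of the 6. The intervals leave out a 2-fold change in either direction for every member, and for PMS2 the bounds were 0.809-fold and 1.28-fold. Of the 6 values 3 lay above 0 and 3 below, with a median of -0.01, and the median of all tested genes was 0.01.

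**Figure D2:**
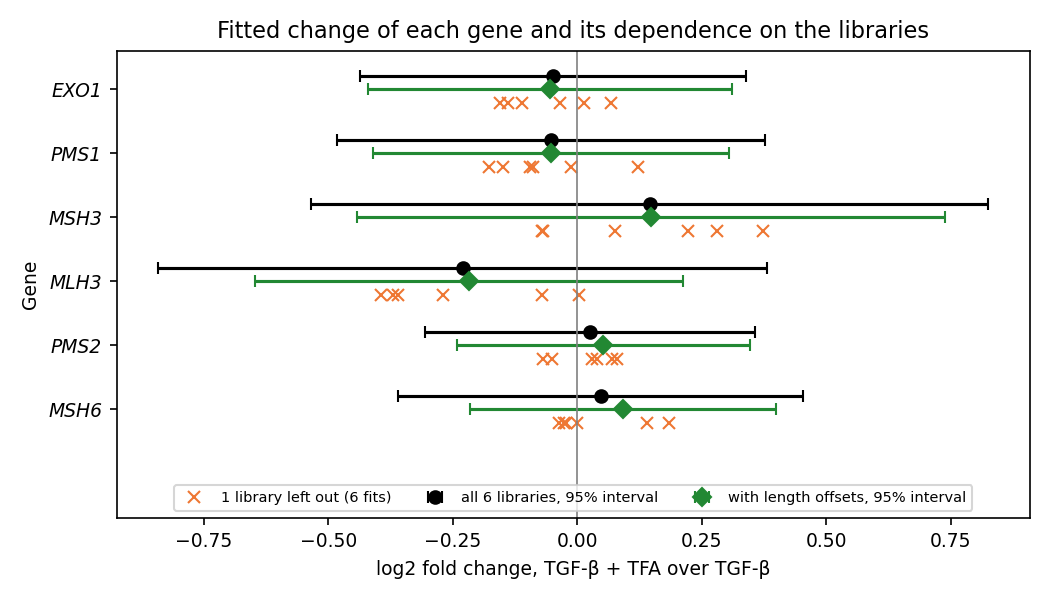
Fitted log2 fold change of each gene, TGF-β with TFA over TGF-β alone, from edgeR. Black points use all 6 libraries, green points add offsets for the trend of each library with gene length (both with 95% intervals), and orange crosses leave out 1 library each. All intervals hold 0, and the crosses lie on both sides of 0 for every gene.

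One library weighs on several of these values. TGFb_TFA 3 had the lowest value of 5 of the 6 genes, and its summed FPKM over the 6 genes was 27.5, against 34.2 to 46.0 in the other libraries. Without it the log2 fold change was 0.12 for PMS1, 0.0041 for MLH3 and 0.07 for EXO1, each on the other side of 0. TGFb 2, the lowest library of PMS2, had the other low MSH3 value. Without it MSH3 had -0.07, PMS2 -0.05 and MSH6 -0.03, and without TGFb_TFA 2 the values were -0.07, -0.07 and -0.02. MSH6 also turned without TGFb 1 (-0.04) and without TGFb_TFA 1 (-0.0011), and EXO1 without TGFb 1 (0.01). With TGFb 1 and TGFb_TFA 3 both left out, MSH3 stood at 0.50 (95% interval -0.10 to 1.10, edgeR adjusted p = 0.887). In no such fit did a member pass the test.

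TGFb_TFA 3 also stood apart by gene length. Over all tested genes in 10 groups by length, the median deviation of TGFb_TFA 3 from the mean of the 6 libraries ran from 0.36 in the shortest to -0.33 in the longest (log2 CPM). In TGFb 2 this median ran the same way but less far, from 0.10 to -0.16. In the remaining libraries it ran the other way. In TGFb_TFA 3 MLH3 deviated by -0.71, MSH3 by -0.48, PMS1 by -0.44, EXO1 by -0.28, MSH6 by -0.17 and PMS2 by -0.01. After offsets that remove the length trend of each library, the deviations were -0.47 for MLH3, -0.41 for MSH3, -0.36 for PMS1 and -0.30 for EXO1, while MSH6 had 0.14 and PMS2 0.13. The log2 fold changes with these offsets were 0.09 for MSH6, 0.15 for MSH3, 0.05 for PMS2, -0.05 for PMS1, -0.22 for MLH3 and -0.06 for EXO1. In TGFb 2 the lowest deviation was that of MSH3, -0.59, and it was -0.54 after the offsets.

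**Figure D3:**
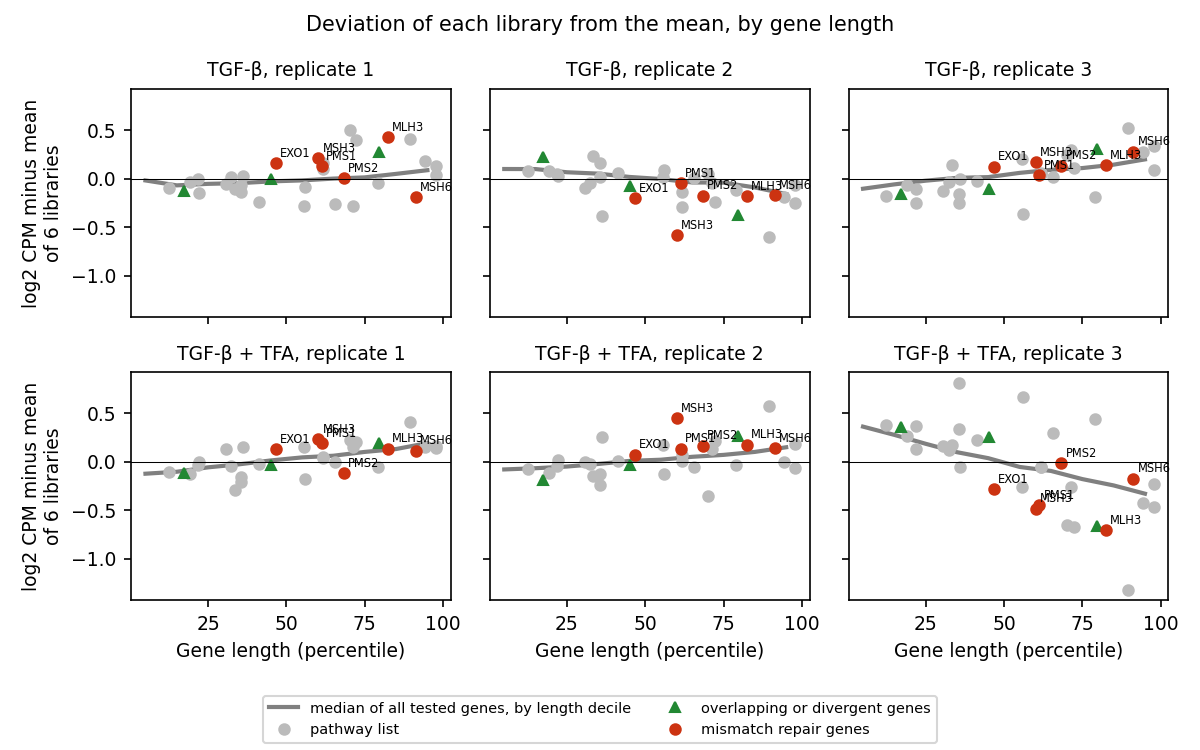
Deviation of each gene's log2 CPM from its mean over the 6 libraries, against the percentile of gene length, one panel per library. The grey line is the median of all tested genes in each length group; in TGF-β + TFA, replicate 3, it falls from 0.36 to -0.33, and EXO1, PMS1, MSH3 and MLH3 lie below it.

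Between libraries of the same group, MSH3 and MLH3 varied more than most genes. Their SD within groups lay at percentile 90.6 and 85.6 among 10482 tested genes with a mean of at least 1 FPKM. PMS1 lay at 58.7, MSH6 at 50.2, EXO1 at 47.1 and PMS2 at 27.5. The width of the intervals above follows the same order at its ends, widest for MSH3 and narrowest for PMS2.

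Since MutS and MutL proteins compete for a shared partner, the ratios of their RNA levels were compared too, by an exact two-sided permutation test whose smallest possible p is 0.1. MSH6 stood at 0.395, 0.697 and 0.561 of MSH3 with TGF-β alone and at 0.480, 0.422 and 0.647 with TFA. MSH6 was thus below MSH3 in FPKM in all 6 libraries (in 4 of 6 per kilobase of coding sequence), and the groups overlapped (mean log2 difference -0.08, exact p = 0.8). PMS2 stood at 0.371, 0.370 and 0.433 of PMS1 with TGF-β alone and at 0.327, 0.414 and 0.546 with TFA (difference 0.10, exact p = 0.8). PMS2 stood at 0.684, 0.922 and 0.916 of MLH3 with TGF-β alone and at 0.773, 0.914 and 1.49 with TFA (difference 0.29, exact p = 0.6). In FPKM, PMS2 was above MLH3 in TGFb_TFA 3 alone. It was above MLH3 in 4 of 6 libraries per kilobase of coding sequence, and in 6 of 6 per kilobase of the longest coding transcript. After adjustment over the 3 ratios each exact p was 0.8.

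ORMDL1 and AIMP2, which start beside a member, did not share the low values of TGFb_TFA 3. ORMDL1, a regulator of sphingolipid synthesis whose start overlaps that of PMS1, deviated there by 0.26 and PMS1 by -0.44. AIMP2 deviated by 0.36 and PMS2 by -0.01. These deviations are not corrected for the length trend of that library. By length AIMP2 lay at percentile 17.3 and ORMDL1 at 45.2, below PMS1 at 61.3 and PMS2 at 68.3. The median of all tested genes there was 0.28 in the length group of AIMP2, 0.04 in that of ORMDL1 and -0.09 in that of PMS1 and PMS2. FBXO11, the longest of these neighbours (percentile 79.6), deviated by -0.66, and the median of its length group was -0.18. The log2 fold changes were 0.14 for ORMDL1, 0.05 for AIMP2 and -0.11 for FBXO11, with an adjusted edgeR p of 0.9997 each. PMS1 and ORMDL1 share 103 GENCODE 29 exon bases on opposite strands.

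PMS2 has 11 pseudogene copies in the table, all on chromosome 7, and their counts together were about as large as its own. The copies held 48.1% to 58.1% of the counts given to PMS2 and the copies together, by library. PMS2CL averaged 2.26 FPKM, with a range of 1.897 to 2.55, and PMS2P1, a copy of the 5′ end, 2.17, with a range of 1.78 to 2.61. Since reads from identical stretches could have been given to either gene, the split is uncertain for those stretches. The copies align to only part of the PMS2 transcript of 2855 bases, PMS2CL over 1618 bases and PMS2P1 over 645 (95.3% identical). How many counts fall in such stretches was not tested, so the share of the copies is not the uncertain part of PMS2. Counts from other bases of the copies may enter the sum that follows. Summed with the copies, PMS2 had a log2 fold change of 0.07 (95% interval -0.21 to 0.35, edgeR adjusted p = 0.9997). None of the 9 copies tested passed, beside 0.0109% of all tested genes. Of the 9, 6 lay above 0 and 3 below, and their median was 0.13.

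Genes that work beside these 6 gave no call either. The list held 24 genes of the late steps and partners of mismatch repair, such as the clamp PCNA, its loader RFC, the single-strand binding protein RPA and DNA polymerase delta. All 24 were tested, and 0 were called in either direction, beside 0.0109% of all tested genes. Before adjustment 0 had an edgeR p under 0.05, beside 1.83% of all tested genes. At such shares 0 of 24 says little about the list. Of their log2 fold changes 16 lay above 0 and 8 below, with a median of 0.04 and a range of -0.49 to 0.33. In FPKM the groups did not overlap for RFC2, RFC3 and HMGB1, 3 of 24 genes beside the 7.95% of all tested genes, and in CPM for RFC3 only, 1 of 24 beside 7.91%. RFC3, a subunit of the clamp loader, had 30.0, 28.4 and 28.6 FPKM with TGF-β alone and 34.8, 31.8 and 30.5 FPKM with TFA, a log2 fold change of 0.19 (edgeR adjusted p = 0.9997).

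In mean FPKM, 13 of the 24 genes stood above EXO1, the highest of the 6 repair genes, and 6 below MSH6, the lowest. PCNA averaged 342.6 FPKM, HMGB1, a chromatin protein that can take part in the excision step, 230.6, the flap nuclease FEN1 56.5 and RPA2 49.4. Their log2 fold changes were 0.15, 0.25, 0.04 and 0.03. RFC2, another loader subunit, had 0.26. MSH4 and MSH5, the MutS pair of meiosis, were low in these cells, at means of 1.08 and 0.526 FPKM. MSH4 had a log2 fold change of 0.23. MSH5 had 0.731, 0.509 and 0.614 FPKM with TGF-β alone and 0.612, 0.407 and 0.284 FPKM with TFA, a log2 fold change of -0.49 (edgeR adjusted p = 0.9997) that did not pass. A readthrough gene that joins MSH5 and SAPCD1 has a row of its own, with a mean of 0.70 FPKM, so the MSH5 value is uncertain.

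**Figure D4:**
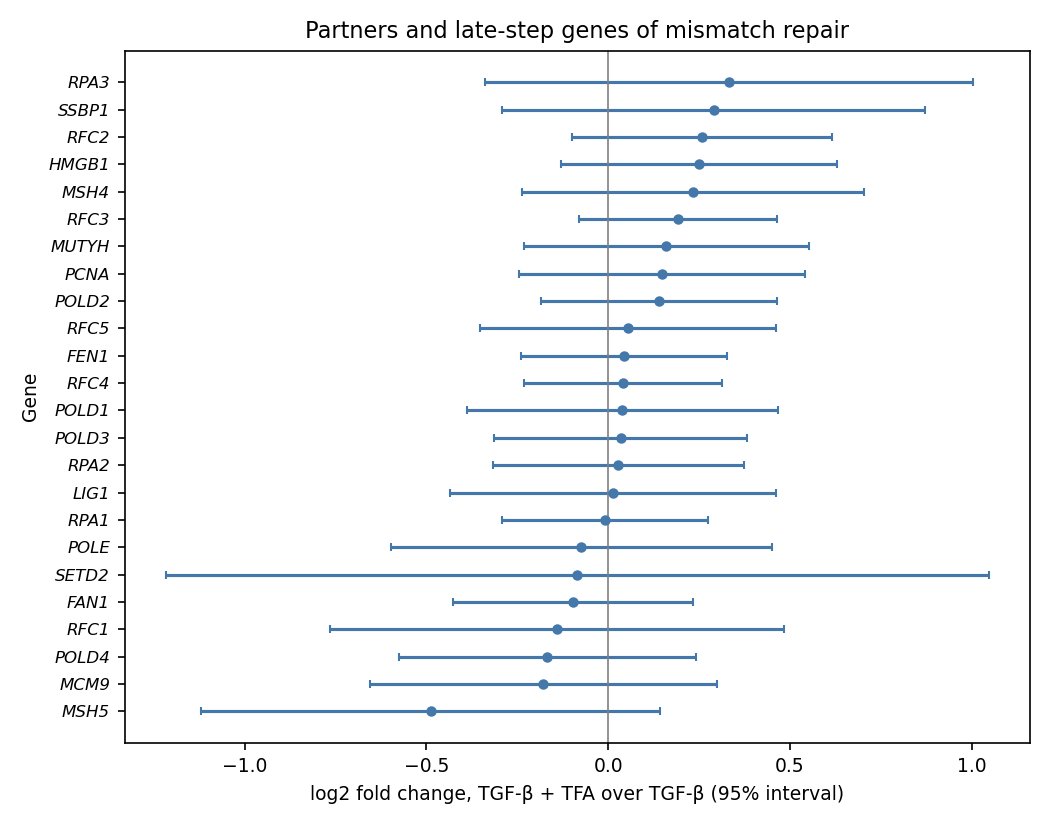
Fitted log2 fold change (edgeR, with 95% interval) of 24 partners and late-step genes of mismatch repair, TGF-β with TFA over TGF-β alone. All 24 intervals hold 0; the values run from -0.49 for MSH5 to 0.33 for RPA3.

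As context, the RNA levels of 14 S-phase genes, such as the MCM helicase subunits, were summarised. Replication itself was not measured. None of the 14 was called, beside 0.0109% of all tested genes. Of their log2 fold changes 4 lay above 0 and 10 below, with a median of -0.03. In CPM the groups did not overlap for 1 of 14, beside 7.91% of all tested genes.

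The genes whose pattern over the 6 libraries was most like that of a member were found by Pearson's r of log2 CPM, as a description over 6 points that share the length trend. For EXO1 they were FOXJ3 and NHS, both at 0.999, for PMS1 NEDD4 (0.998) and CWC22 (0.997), and for MLH3 LAMA2 (0.998). For MSH3 they were CEP97 (0.997) and ZNF283 (0.993), and for MSH6 NAA60 (0.992) and LARGE2 (0.986). PMS2 was nearest to FRG1HP (0.992) and ZC3HAV1L (0.969). Such likeness was common for some members and rare for others: 862 of 10481 genes had an r over 0.95 with EXO1, 575 with MLH3, 414 with PMS1 and 295 with MSH3, against 25 with MSH6 and 4 with PMS2.

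Across the series, the libraries held 60361756 to 68745953 estimated counts, and 23096 to 24159 genes were above 0. The epithelial markers KRT8 and KRT18 averaged 387.4 and 725.1 FPKM, the intestinal CDX2 10.8 and KRT20 65.0, while VIL1 (0.218), LGALS4 (0.0969) and CEACAM5 (0.0198) were near 0. Of 10 epithelial markers 9 were in the table and 6 averaged at least 1 FPKM, with summed levels of 1207 to 1483 FPKM with TGF-β alone and 1121 to 1295 with TFA. The 8 fibroblast markers summed to 0.0377 to 0.244 FPKM with TGF-β alone and 0.342 to 2.27 with TFA, without overlap. These are trace levels, and 0 of the 8 averaged at least 1 FPKM. Of the 5 tested, 5 lay above 0 and 4 had an unadjusted edgeR p under 0.05, beside 1.83% of all tested genes, but 0 were called. What lies behind this was not tested. The 7 endothelial markers summed to 1.31 to 1.81 and 1.95 to 2.22 FPKM, also without overlap, and 0 of the 5 tested had an unadjusted edgeR p under 0.05. The 5 haematopoietic markers found, of 7, summed to 0.360 to 0.487 and 0.346 to 0.697.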

How the data were processed

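The authors deposited 1 table that gives, for each gene and library, an estimated count and an FPKM value. GRCh38 is the build, and StringTie 1.3.4d, HISAT2 2.0.4 and cutadapt 1.9 are the tools, in the submitters' processing notes, without their roles. The labels' protocols give a dUTP stranded library with paired reads of 150 bases and adapters that carry unique molecular identifiers. No source used here says whether these were used. The deposited FPKM values divide the estimated counts by the length of all exons of a gene joined, within 5% for 94.5% of 3996 genes whose span is that of GENCODE 29. A count of 4 occurred more often than 3 or 5, so 1 fragment may add about 4 counts, and totals may overstate depth.

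Estimated counts, whole numbers as deposited, were tested in edgeR 4.0.16 (R 4.3.3). Genes were filtered with filterByExpr and scaled by TMM. A quasi-likelihood model with the group alone was fitted, glmQLFTest was two-sided, and p-values were adjusted by Benjamini-Hochberg over the 18265 genes left. All 6 members passed the filter. Called means an adjusted p under 0.05. Levels are the deposited FPKM values. Alternatives were limma 3.58.1 on log2(FPKM + pseudocount), DESeq2 1.42.0, other scalings and filters, length offsets, counts divided by 4, the replicate number as a block, and libraries left out. Counts per kilobase of coding sequence or longest coding transcript were added after seeing the data.

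Named are all members, the called genes, the 4 highest and the 4 of lowest p of the list of partners, MSH4, MSH5, copies of PMS2, genes that overlap a member or start within 2 kb of it, and the 2 genes most like each member. The neighbours AC022493 and RNU6-689P lie within introns of MSH3 and MLH3 and were too low to test. The members and lists were chosen with earlier results of these data known. A neighbour of a member and a gene of like pattern that the rule names are not reported here.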

Additional observations from a re-analysis of the deposited data

How the results depend on the processing

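No alternative brought a member past the test: of 240 recomputed values, 206 kept their direction and side of the threshold (or moved little), 27 turned, 6 were lower and 1 was higher. Part of the 206 could not have come out otherwise. Rescaling FPKM to a fixed library total, or dividing counts by the implied length, leaves the ratios within a library as they were, apart from rounding. The sign-flip test over 5 libraries has a smallest p of 0.0625, and the partner-ratio test one of 0.1. Neither can pass the threshold. The 206 are thus no measure of how robust the results are. The number of genes called over the whole table was 2 in the main fit, 13 with DESeq2, 1 with limma without a filter, 1 with the replicate number as a block, 1 with the replicate block and length offsets together, and 1 to 3 with 1 library left out. Same-numbered libraries correlated in their deviations by 0.04, -0.12 and -0.13, and no library correlated best with the one of its own number, so the numbers, which share a labelled treatment time, were not taken as pairs. PMS2 turned in limma, to -0.0050, -0.0057 and -0.0043 at pseudocounts of 0.5, 0.1 and 1, and to -0.0050 without a filter. Without both TGFb 1 and TGFb_TFA 3, PMS1 turned to 0.15, MLH3 to 0.16 and EXO1 to 0.12. With 1 library left out, log2 fold changes ran from -0.036 to 0.18 for MSH6, -0.070 to 0.37 for MSH3, -0.069 to 0.080 for PMS2, -0.18 to 0.12 for PMS1, -0.39 to 0.0041 for MLH3 and -0.16 to 0.068 for EXO1. In the same fits the partner ratios differed between groups by -0.30 to 0.11 (MSH6 to MSH3), -0.086 to 0.28 (PMS2 to PMS1) and 0.013 to 0.49 (PMS2 to MLH3), and the ratio of MSH3 to MLH3 levels ran from -0.030 to 0.11. Per kilobase of coding sequence, MSH3 to MLH3 was -0.27 and MLH3 to PMS2 -0.21. Per kilobase of longest coding transcript, MLH3 to PMS2 was -0.92, below 0 in 6 of 6 libraries. In FPKM that ratio was already below 0 in TGFb_TFA 3, at -0.58. These scales use the same counts as FPKM and differ from it in the lengths. The cause of the other turns was not tested.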
